A study of Mus musculus with 13 samples.

Results

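The regions described here are 10116 replication origins of mouse embryonic stem (ES) cells that had a peak in both lists made with the G4 ligand PhenDC3 and in exactly 1 of the 3 control lists. They were chosen by measured values, namely the presence of a peak in each list. The peaks of 5 lists were merged wherever they overlapped by at least 1 bp, which gave 246934 regions on the nuclear chromosomes, and 4.10% of these regions met the rule. They made up 16.3% of the 62119 regions with a peak in both PhenDC3 lists and 9.95% of the 101678 origins, an origin being a region with a peak in at least 2 controls or in both PhenDC3 lists. They are called one-control origins below.

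DNA strands that had just been started from an RNA primer (short nascent strands, SNS) were sequenced from CGR8 cells, a mouse ES cell line grown without feeder cells on gelatin with LIF and serum. Asynchronous cells were kept for 48 h in 0.5% DMSO (Ctrl 1, Ctrl 2 and Ctrl 3) or in 10 μM PhenDC3 with the same solvent (PhenDC3 1 and PhenDC3 2), so that both conditions carried DMSO. Every list of a condition was called against 1 RNase-treated library of that condition, and RNA-seq was made from 3 libraries of each condition. CGR8 is 1 cell line, and the control SNS-seq replicates are called biological in the study's methods. Whether the RNA-seq libraries came from separate cultures is not given in the sources used here, so p-values measure only the spread between these samples, which may be technical.

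Origins are set up by the loading of MCM helicases in G1 and only some of those loaded fire in S phase, which leaves a reserve of sites whose use varies from cell to cell. Many mammalian origins lie next to an origin G-rich repeated element (OGRE), a stretch of runs of G that can fold into a G-quadruplex (G4), in which stacked tetrads of G are held together by Hoogsteen bonds. PhenDC3 is a bisquinolinium compound that binds and stabilizes G4.

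The control peak lay in Ctrl 1 in 4270 one-control origins, in Ctrl 2 in 1962 and in Ctrl 3 in 3884. The lists held 120882, 81211 and 79377 nuclear peaks in the same order, and 144103 and 102400 in PhenDC3 1 and PhenDC3 2. Ctrl 3 thus gave 38.4% of the one-control origins with 28.2% of the control peaks, and Ctrl 2 gave 19.4% of them with 28.8% of the control peaks. Read numbers are not part of the lists, and the depth of the SNS libraries is therefore unknown. In the peak names, the part that stands for the SNS library carries an adapter filter tag in Ctrl 2 and PhenDC3 2 and none in Ctrl 1, Ctrl 3 and PhenDC3 1, and the part in the results of any difference in read processing was not tested.

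The sequences shown first are the strongest predicted G4 at 1 highly enriched G4-positive origin for each control, because they are the element that most of the one-control origins share. Each is the G-rich strand, 5′ to 3′, from the GRCm38 (mm10) reference of RefSeq, with runs of at least 3 G in capitals.
Ctrl 1, chr7:109784935-109784979, minus strand: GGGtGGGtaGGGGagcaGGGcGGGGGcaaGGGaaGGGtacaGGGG
Ctrl 2, chr10:75779978-75780012, plus strand: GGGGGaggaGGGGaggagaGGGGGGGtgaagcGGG
Ctrl 3, chr3:108777086-108777125, minus strand: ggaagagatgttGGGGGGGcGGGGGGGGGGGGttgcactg
Their G4Hunter scores, the highest mean over 25 bases of a score in which each G counts by the length of its run up to 4, lay between 2.36 and 3.04. In the Ctrl 1 and Ctrl 3 sequences at least 1 single base separated neighbouring runs of G, and in the Ctrl 2 sequence the runs were separated by longer stretches. On its own strand, the G4 lay upstream of the centre of the origin in Ctrl 1 (-290 bp) and Ctrl 3 (-213 bp), and 369 bp downstream in Ctrl 2.

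The Ctrl 1 origin next to the first of these sequences, chr7:109784492-109784842, is intergenic and 3122 bp from the TSS of Nrip3. Its fold enrichment relative to the RNase-treated sample was 14.3 in PhenDC3 1, 13.1 in PhenDC3 2 and 3.01 in Ctrl 1, at the 99.4, 98.8 and 8.55 percentile of the lists by −log10 p, with no peak in Ctrl 2 or Ctrl 3. Another, chr14:118933549-118933834, lies 4240 bp from the TSS of Dnajc3, a chaperone of the endoplasmic reticulum, and had 4 predicted G4. Its fold enrichment was 10.2 and 12.3 in the PhenDC3 lists and 3.44 in Ctrl 1. At both origins the PhenDC3 peaks were among the strongest of their lists, which the choice of these origins by their PhenDC3 percentiles fixes. The control peak was not, and a contrast of this kind follows in part from that choice.

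A leading Ctrl 2 origin, chr10:75779498-75779753, lies in an intron of Gstt3, a glutathione transferase gene. Its fold enrichment was 12.5 in PhenDC3 1, 9.78 in PhenDC3 2 and 2.91 in Ctrl 2. Another, chr11:40505606-40505843, is intergenic, 186957 bp from the nearest TSS, that of Mat2b, with values of 6.66 and 6.57 in the PhenDC3 lists. The control peaks of both origins stood low in the Ctrl 2 list, at the 27.8 and 4.46 percentile.

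A leading Ctrl 3 origin, chr3:108776735-108777050, lies in an intron of Aknad1, with a fold enrichment of 15.2 in PhenDC3 1, 12.8 in PhenDC3 2 and 9.22 in Ctrl 3. Another, chr15:98842888-98843116, lies in an intron of Kmt2d, a histone H3 lysine methyltransferase gene, with values of 6.35, 5.94 and 4.31. The Ctrl 3 peak of the Aknad1 origin stood higher in its list, at the 77.4 percentile, than that of the Kmt2d origin, at the 68.1 percentile.

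Not every strongly enriched member has a predicted G4, as a tandem repeat on chromosome 15 shows. The origin chr15:12098242-12100035 spans 1794 bp of intergenic DNA, 18712 bp from the TSS of Zfr, and had no G4 within 500 bp of its centre although the GC content there was 74.3%. The 120 bases at its centre, with runs of at least 3 G in capitals, are repeats of a short unit in which most runs of G are pairs.
Ctrl 1, origin without G4, chr15:12099079-12099198, plus strand: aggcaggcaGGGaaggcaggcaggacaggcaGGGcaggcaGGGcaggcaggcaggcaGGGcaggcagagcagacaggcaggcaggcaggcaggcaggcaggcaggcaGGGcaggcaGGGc
Its fold enrichment was 24.3 in PhenDC3 1, 19.3 in PhenDC3 2 and 24.8 in Ctrl 1. Unlike the origins above, its control peak was as high as the PhenDC3 peaks, yet neither Ctrl 2 nor Ctrl 3 listed a peak there. The strongest Ctrl 2 origin without a G4, chr10:60832690-60833250, lies 1389 bp upstream of the TSS of Unc5b, a netrin receptor gene, with values of 8.27, 6.96 and 3.50. The strongest Ctrl 3 one, chr7:35381395-35382088, lies in an intron of Rhpn2, with values of 12.02, 13.26 and 4.652.

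The control peak of a one-control origin was usually a weak peak of its list. By −log10 p, its median percentile was 39.2 in Ctrl 1, 29.3 in Ctrl 2 and 37.4 in Ctrl 3, against 80.1, 71.2 and 74.8 for the control peaks of the 22677 origins of all 5 lists. The PhenDC3 peaks of the same origins had a median percentile of 64.5 in PhenDC3 1 and 52.1 in PhenDC3 2, against 69.3 and 75.01 in the origins of all 5 lists and 58.97 and 42.95 in the 18598 origins with no control peak. These values describe the lists that chose the members and were not tested. In fold enrichment, the medians were 5.05, 4.10 and 4.84 in the control that held the peak, and 5.56 and 5.09 in PhenDC3 1 and PhenDC3 2.

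**Figure D1:**
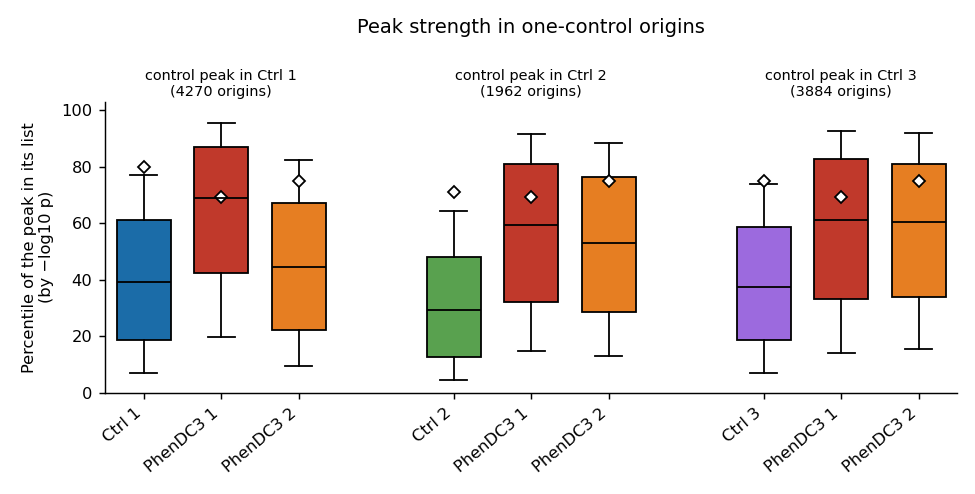
The percentile of the peak within its own list by −log10 p (0 to 100) in one-control origins, grouped by the control that held the peak (boxes, quartiles with the median as a line, whiskers from the 10th to the 90th percentile), with the median of the origins of all 5 lists in the same list as a white diamond. The control boxes have medians of 39.2, 29.3 and 37.4 and lie below their diamonds, whereas the PhenDC3 1 median of 68.9 in the Ctrl 1 group lies beside its diamond.

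PhenDC3 1 held the peak of the higher median percentile for each control, by a gap that differed between controls. With a peak in Ctrl 1, the median percentile was 68.9 in PhenDC3 1 and 44.7 in PhenDC3 2. With a peak in Ctrl 2 it was 59.4 and 53.2, and with a peak in Ctrl 3 it was 61.3 and 60.4. Among regions with the same single control peak but only 1 PhenDC3 peak, that peak was in PhenDC3 1 in 10701 and in PhenDC3 2 in 1411 regions of Ctrl 1, in 1211 and 1566 regions of Ctrl 2, and in 1250 and 2320 regions of Ctrl 3. PhenDC3 1 was thus the more frequent with Ctrl 1, and PhenDC3 2 with Ctrl 2 and Ctrl 3.

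The 3 peaks of a one-control origin were joined by overlap, so the closeness of their summits follows in part from the rule. The median distance between the control summit and a PhenDC3 summit was 21 to 33 bp over the 3 controls, and that between the PhenDC3 summits was 26 to 32 bp. In the origins of all 5 lists the same distances were 21 to 36 bp and 33 bp. For Ctrl 1 and PhenDC3 2, 95.4% of the peaks in Ctrl 1 one-control origins overlapped directly. Their summits were over 100 bp apart in 19.3%, against 22.2% in the origins of all 5 lists. The median width of the merged region was 301 bp, against 245 bp in origins with no control peak and 487 bp in those of all 5 lists.

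At the threshold of the rule, the weakest control peaks had a −log10 p of 5.05. They belonged to an intergenic origin at chr10:117312264-117312696 for Ctrl 1, with a fold enrichment of 2.12 there and of 5.01 and 5.73 in the PhenDC3 lists, to chr15:95981376-95981646 for Ctrl 3 and to chr16:84762620-84763272 for Ctrl 2. The control peak had a −log10 p under 6 in 258 one-control origins (2.55%) and under 10 in 2573 (25.4%). Just outside the rule, the origins chr15:75216566-75217022, in an intron of Ly6g2, and chr15:99725471-99725926, at the promoter of Gm16537, had no control peak, but a control peak began at the next base. Another, chr4:17288464-17288584, had one 3 bp away. Of the one-control origins, 2.47% had a peak of another control within 100 bp and 21.6% within 1000 bp, and 2.32% and 18.9% of the origins with no control peak had a peak of any control at these distances.

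The sequence around the origins was not used by the rule and could be compared. A G4 with a G4Hunter score of at least 2 lay within 500 bp of the centre of 8223 one-control origins, or 81.3% (95% Wilson interval 80.5 to 82.0%), and these are called G4-positive. The share was 80.5% in origins with no control peak, a difference of 0.773 percentage points (95% Newcombe interval -0.182 to 1.72). It was 81.4% in the 10728 origins with peaks in 2 controls (difference -0.126, interval -1.19 to 0.931). In the origins of all 5 lists it was 77.3%, which is 3.97 percentage points lower (interval 3.02 to 4.90). Intervals cover counting error over sites, and sites of the same cells are not replicates. With PhenDC3 2 left out, which takes in regions with a peak in PhenDC3 1 alone, the difference from origins of all remaining lists turned to -7.23 percentage points. The difference from no control peak was 1.84 percentage points without Ctrl 1 (interval 1.02 to 2.65) and -0.0004928 without Ctrl 3. It was -0.336 without PhenDC3 1 and -1.73 without PhenDC3 2 (interval -2.41 to -1.05). Its direction thus changed with the lists used, and leaving out any list also changes which regions are members.

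The share rose with the number of PhenDC3 lists among regions with the same single control peak. Where the peak was in Ctrl 1 only, 35.03% of the 35323 regions without a PhenDC3 peak, 59.7% of the 12112 with 1 and 78.5% of the 4270 with both were G4-positive. For Ctrl 2 the shares were 36.3, 75.7 and 83.7%, and for Ctrl 3 they were 31.9, 72.2 and 83.1%. The difference between both and none was 43.5 percentage points (interval 42.1 to 44.8) for Ctrl 1, 47.4 (45.5 to 49.3) for Ctrl 2 and 51.2 (49.7 to 52.6) for Ctrl 3. The direction was the same for the 3 controls, but all 3 differences use the same PhenDC3 lists and are not independent repeats. The control peaks of these regions also differed in strength, with median percentiles without a PhenDC3 peak of 30.8 in Ctrl 1, 27.2 in Ctrl 2 and 26.3 in Ctrl 3, and the part of strength in these shares was not tested. Over all 246934 merged regions, 61.7% were G4-positive.

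**Figure D2:**
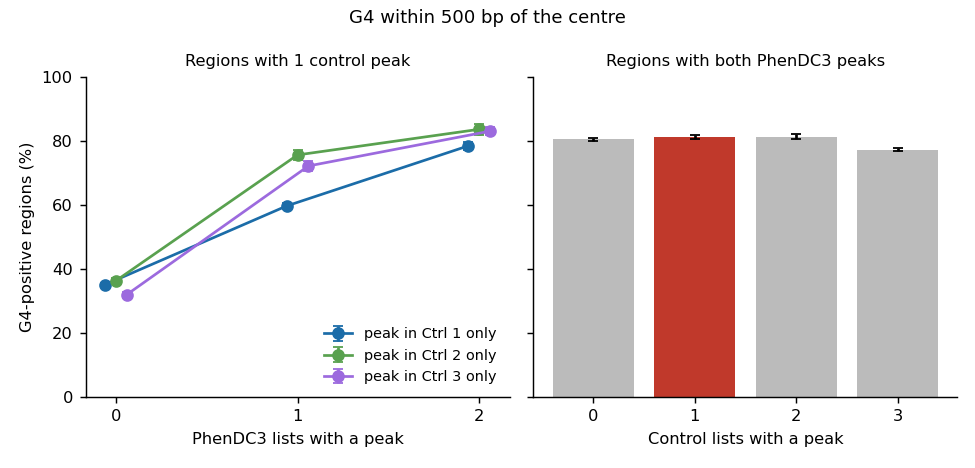
G4-positive regions in percent, with 95% Wilson intervals as bars, against the number of PhenDC3 lists with a peak for regions with a peak in 1 control only (left, 1 line per control) and against the number of control lists with a peak for regions with both PhenDC3 peaks (right, one-control origins in red). On the left the 3 controls rise from between 31.9 and 36.3% to between 78.5 and 83.7%, and on the right the shares lie between 77.3 and 81.4%.

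The small difference from origins with no control peak depended on how a G4 was counted. Within 250 bp of the centre, 47.5% of the one-control origins and 51.8% of those with no control peak had a G4, a difference of -4.38 percentage points (interval -5.59 to -3.17). At least 2 G4 were found at 22.7% of the one-control origins and at 20.5% of those with no control peak (difference 2.22, interval 1.22 to 3.22), against 26.4% of the origins of all 5 lists. Within bins of 5 percentage points of GC content, the one-control origins exceeded those with no control peak by 2.16 percentage points from 45 to 50% GC (interval 0.612 to 3.66), and the intervals of the other bins held 0. They exceeded the origins of all 5 lists in each of the 6 bins below 65% GC. At 65% GC and above, with 25 one-control origins, the difference was -15.8 percentage points (interval -35.6 to -1.72).

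The predicted G4 lay upstream of the centre. On the G-rich strand, the coverage by G4 reached 14.4% of the one-control origins at -256 bp (negative is upstream) and averaged 10.2% from 400 to 100 bp upstream against 0.893% at the same distances downstream. The maximum was at -238 bp in origins with no control peak and at -288 bp in those of all 5 lists, whose regions were narrower and wider respectively. Among one-control origins, the maximum was 12.5% at -260 bp for Ctrl 1, 18.5% at -216 bp for Ctrl 2 and 16.4% at -261 bp for Ctrl 3. The Ctrl 2 origins had the highest and the closest maximum of the 3.

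**Figure D3:**
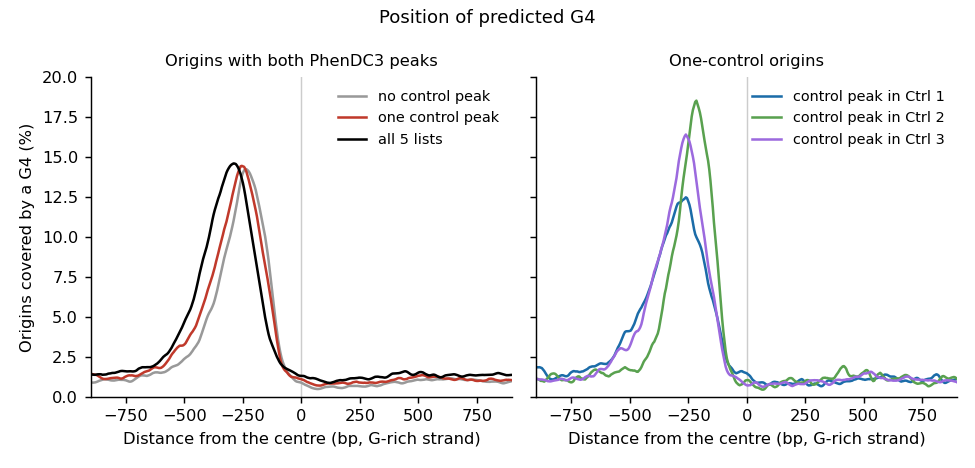
Percent of origins covered by a predicted G4 at each distance in bp from the centre (negative is upstream on the G-rich strand, minus-strand G4 mirrored, smoothed over 25 bp), for origins with both PhenDC3 peaks by the number of controls (left) and for one-control origins by the control that held the peak (right). The one-control curve peaks at -256 bp between the other classes, and the Ctrl 2 curve is the tallest on the right with a maximum of 18.5%.

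The median score of the strongest G4 was 2.56 (quartiles 2.28 and 2.80), against 2.52 with no control peak and 2.60 in all 5 lists. Runs of 3 G on both sides of a single base were searched in the strongest G4 on its own strand. GGGTGGG was found in 51.9% of them, GGGAGGG in 37.0%, GGGGGGG in 31.3% and GGGCGGG in 12.5%, and a G4 could hold several. The shares with no control peak were 53.3, 34.7, 33.2 and 12.3%, and those in all 5 lists were 52.4, 35.7, 33.8 and 16.4%. GGGCGGG was thus found in a lower share of the G4 of one-control origins than in all 5 lists or with 2 control peaks (16.4%), a difference that was not tested. By control, the share was 11.7% for Ctrl 1, 17.5% for Ctrl 2 and 10.7% for Ctrl 3, so it was not lower for Ctrl 2. On either strand of the window of 500 bp on each side of the centre, GGGTGGG was found at 66.5% of the one-control origins and at 53.1% of all merged regions.

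Pooled over the controls, the promoter share of one-control origins lay between those of origins with no control peak and of all 5 lists. A promoter, taken as the 2 kb upstream of a RefSeq TSS, held the centre of 550 of them (5.44%, interval 5.01 to 5.90%). This was 1.97 percentage points above the 3.47% of origins with no control peak (interval 1.46 to 2.49) and 3.17 below the 8.61% of origins of all 5 lists (difference -3.17, interval -3.74 to -2.59). Leaving out a control takes in origins with a peak in that control and 1 other. Of the origins with peaks in 2 controls, 9.97% lay in a promoter. The difference from all remaining lists was 0.683 percentage points without Ctrl 1 and 0.808 without Ctrl 2, so its direction changed with the lists used. The part of the changed members in this was not tested. The difference from no control peak was 4.95 percentage points without Ctrl 1, 4.61 without Ctrl 2, 2.43 without PhenDC3 1 and 3.52 without PhenDC3 2. Intergenic DNA held 49.2% of the one-control origins, introns 40.5%, coding exons 3.163% and other exons 1.74%.

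CpG islands, the unmethylated CpG-rich stretches found at many promoters, showed a wider gap. CpG island-like sequence (GC content of at least 50% and an observed over expected CpG ratio of at least 0.6 within 500 bp of the centre) surrounded 2.67% of the one-control origins, 1.12% of those with no control peak, 9.94% of those with peaks in 2 controls and 9.42% of those of all 5 lists. The one-control origins were below the class with 2 controls (difference -7.27 percentage points, interval -7.92 to -6.62). The median GC content was 48.0% against 47.2, 49.1 and 50.7% in the same order.

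The controls differed from each other in these features. In a promoter lay 5.83% of the Ctrl 1, 8.82% of the Ctrl 2 and 3.30% of the Ctrl 3 one-control origins, and 2.48, 6.98 and 0.695% were CpG island-like. The pooled order thus did not hold for each control. The Ctrl 3 shares were below those with no control peak (3.47% promoter, within the Ctrl 3 interval of 2.78 to 3.90%, and 1.12% CpG island-like). The Ctrl 2 promoter share was above the 8.61% of all 5 lists, which lay within its interval (7.64 to 10.2%). The difference between Ctrl 2 and Ctrl 3 was 5.52 percentage points (interval 4.20 to 6.96) for promoters and 6.29 (5.20 to 7.52) for CpG islands. A G4 within 250 bp was found in 41.2, 61.9 and 47.0%. The share with at least 50% of the window soft-masked as repeat differed by -9.22 percentage points between Ctrl 2 and Ctrl 3 (interval -11.2 to -7.20), and was 22.2% in Ctrl 3. Without any PhenDC3 peak, 10.8% of the Ctrl 1, 20.4% of the Ctrl 2 and 2.93% of the Ctrl 3 regions lay in a promoter, the same order over the controls, and 8.02, 17.8 and 0.980% were CpG island-like, also in that order. A G4 within 250 bp was found in 18.2, 22.5 and 15.97% of these regions, where Ctrl 1 and not Ctrl 3 came second. Each control is 1 library, so the library and the origins it holds cannot be told apart.

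**Figure D4:**
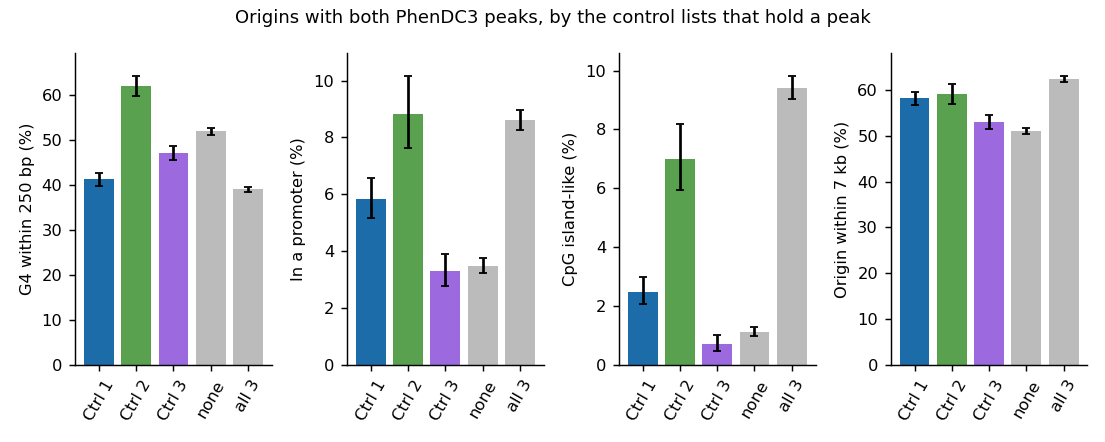
Shares in percent with 95% Wilson intervals of origins with both PhenDC3 peaks, by the control that held a peak (Ctrl 1 to Ctrl 3 are the one-control origins, none and all 3 are the other classes). Panels give a G4 within 250 bp, a centre in a promoter, CpG island-like sequence and another origin within 7 kb, and the Ctrl 2 bars are the tallest of the one-control origins in each.

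One-control origins were less often isolated than origins with no control peak. Another origin lay within 7 kb of the centre of 5706 of them (56.4%), against 51.0% with no control peak (difference 5.37 percentage points, interval 4.17 to 6.57) and 62.4% in all 5 lists (difference -5.94, interval -7.09 to -4.79). Without PhenDC3 2 the last difference turned to 3.72, and without Ctrl 1 and Ctrl 2 it shrank to -2.68 and -2.46. The difference from no control peak was 3.23 without PhenDC3 2. An origin of all 5 lists lay within 7 kb of 20.8%, and another one-control origin within 7 kb of 11.2%. By control, 58.1, 59.2 and 53.1% of the Ctrl 1, Ctrl 2 and Ctrl 3 one-control origins had a neighbour.

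Gene expression was measured in 6 other libraries of the same treatments and was not used by the rule. The libraries held between 22232014 and 29486502 counts. Levels are given as CPM, read counts per 1e6 counts of the genes tested, with the library totals adjusted by RLE normalization. The 8 ES cell markers summed to between 6479 and 6903 CPM in control and between 8455 and 9426 CPM in PhenDC3 libraries. The 4 of 5 fibroblast markers that were tested summed to between 6.02 and 8.51 CPM over all libraries. Of 13972 genes tested, 18.0% were higher and 18.7% lower with PhenDC3 (adjusted p of at most 0.05, edgeR's quasi-likelihood test). Single ES cell markers moved both ways. The log2 fold changes were 1.62 for Tfcp2l1, 1.22 for Nanog, 0.82 for Klf4, 0.56 for Dppa5a, 0.22 for Sox2 and 0.21 for Esrrb. They were -0.45 for Pou5f1 and -0.03 for Zfp42, and Sox2, Esrrb and Zfp42 were not called.

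A one-control origin lay at the promoter of 572 genes, of which 354 were tested. Of these, 55 were higher (15.5%) and 79 lower (22.3%), and their median log2 fold change was 0.01, the same as over all genes tested. Genes with an origin of all 5 lists at the promoter (1354 tested) were higher in 18.02% and lower in 20.7%, and those with an origin without control peak (408 tested) in 15.4 and 18.1%. The promoter shares thus lay near the background in each class. Without PhenDC3 1 of the RNA-seq, 35 of the 363 promoter genes tested were higher and 58 lower. Over all genes, 1709 were then higher and 1623 lower, against 2518 and 2617 in the main fit. A one-control origin lay inside 3589 genes, and of the 2551 tested 23.0% were higher and 16.2% lower. Over all genes tested the shares were 18.0 and 18.7%. They were 22.1 and 17.1% for origins of all 5 lists inside a gene and 23.4 and 15.7% for those with no control peak. With peaks in 2 controls they were 23.6 and 16.6%. The departure from all genes was thus shared by the other classes and was not tested.

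Among the genes with a one-control origin at the promoter, Spry4, which encodes an inhibitor of receptor tyrosine kinase signalling to MAP kinase, fell the most. It was at 278, 202 and 246 CPM in the controls and at 17.3, 11.1 and 22.7 CPM with PhenDC3, without overlap, and its log2 fold change was -3.83 ± 0.26 (SE, adjusted p = 5.34e-05 by edgeR). Myrf, the transcription factor of myelin genes, was at 87.6, 94.5 and 116 CPM in the controls and at 7.70, 3.89 and 10.2 CPM with PhenDC3 (log2 fold change -3.76 ± 0.30, adjusted p = 8.29e-05, edgeR). The origins at both promoters had their control peak in Ctrl 2 and were G4-positive. Sulf1, an extracellular heparan sulfate sulfatase, fell from 37.3 ± 8.15 to 6.07 ± 2.99 CPM (mean ± SD, n = 3). Its origin had no G4.

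Among the other falls, Tnfsf11, the cytokine RANKL, fell by 2.75 on the log2 scale, and the origin at its promoter had a fold enrichment of 17.7 in PhenDC3 1, 8.51 in PhenDC3 2 and 3.93 in Ctrl 1. Igsf21, an adhesion protein of synapses, fell from 2.67 to 0.582 CPM on average. Kndc1 fell by 1.956 on the log2 scale and Kirrel2, a nephrin-like adhesion protein, by 1.80. Pax6, a transcription factor of eye and neural development, was at 7.06, 8.89 and 5.45 CPM in the controls and at 1.67, 1.09 and 3.01 CPM with PhenDC3 (log2 fold change -1.88 ± 0.35, adjusted p = 0.00348, edgeR). Its promoter origin, chr2:105674822-105675171, was CpG island-like and G4-positive, with a fold enrichment of 5.05 in Ctrl 1, 4.47 in PhenDC3 1 and 5.13 in PhenDC3 2.

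The largest rise was that of Pla2g4e, a cytosolic phospholipase A2, from 2.02 ± 0.32 to 10.6 ± 1.41 CPM (mean ± SD, n = 3). Gata2, a transcription factor of blood progenitors, was at 0.905, 1.32 and 1.17 CPM in the controls and at 4.61, 4.68 and 5.08 CPM with PhenDC3 (log2 fold change 2.09 ± 0.23, adjusted p = 0.000258, edgeR). Its promoter origin, chr6:88196755-88197063, had a fold enrichment of 12.6 in PhenDC3 1, 4.85 in PhenDC3 2 and 5.86 in Ctrl 1. Smarca2, an ATPase of the SWI/SNF remodelling complex, rose by 1.83 on the log2 scale, and its origin had values of 7.01, 9.58 and, in Ctrl 2, 2.60. Lif, the cytokine that keeps mouse ES cells undifferentiated, was at 5.00, 5.56 and 5.79 CPM in the controls and at 17.2, 15.6 and 18.7 CPM with PhenDC3, and 3 other origins lay at its promoter. Cpne2 rose by 1.79, Sync, an intermediate filament gene, by 1.76, Stra6, the retinol transporter, by 1.74, and 1700003M07Rik by 1.73. The origin was G4-positive at each of these 8 promoters and at 5 of the 8 promoters of the falls, Sulf1, Kndc1 and Kirrel2 being the others. Of the 550 one-control origins in promoters 79.1% were G4-positive, and rises and falls were not compared. Other origins also lay at the promoters of Smarca2 and Sync (2 each) and of Gata2, Cpne2, 1700003M07Rik, Sulf1 and Kirrel2 (1 each).

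**Figure D5:**
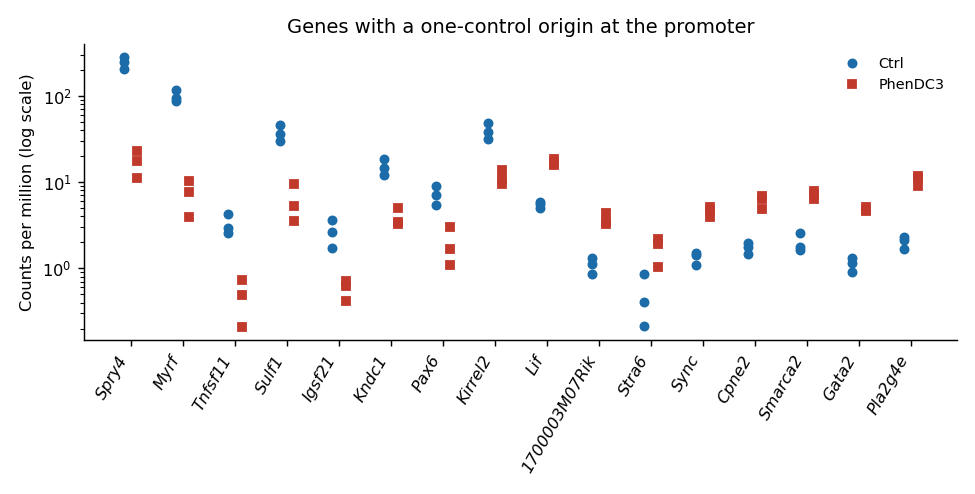
RNA-seq levels in CPM (log axis) of the 8 largest falls and 8 largest rises among genes with a one-control origin at the promoter, each point 1 library (3 Ctrl, blue circles, and 3 PhenDC3, red squares). The groups do not overlap in any gene, which the choice of the genes fixes, and Spry4 falls from between 202 and 278 to between 11.1 and 22.7.

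Members of 3 of the 8 gene lists examined had a one-control origin at the promoter, which 2.18% of the 26180 annotated genes had. In the pluripotency list it was 1 of 18, Pou5f1, the transcription factor OCT4, whose RNA fell from 1486 ± 118 to 1091 ± 43.4 CPM (mean ± SD, n = 3, log2 fold change -0.45, adjusted p = 0.0113, edgeR). In the list of formative and lineage genes they were Pax6 and Gata6, the latter a transcription factor of primitive endoderm with a log2 fold change of 0.85 (adjusted p = 0.0435, edgeR). In the list of oncogenes with a G4 at the promoter it was 1 of 13, Vegfa, the vascular growth factor, with values of 22.6 ± 8.86 and 37.5 ± 10.2 CPM (adjusted p = 0.0799, edgeR). The origin at the Vegfa promoter, chr17:46033271-46033713, had a fold enrichment of 11.0 in PhenDC3 1, 5.51 in PhenDC3 2 and 7.10 in Ctrl 1. The Pou5f1 and Vegfa promoters each held 1 other origin. None of the 30 replication initiation genes, 12 G4 helicases, 14 p53 targets, 15 Wnt pathway genes and 10 DNA methylation genes had a one-control origin at the promoter.

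Inside the gene, a one-control origin was found in 13.7% of all annotated genes. It was found in 10 of the 15 Wnt pathway genes, among them Tcf7l1 and Tcf7l2, transcription factors that act at the end of the pathway, and Rnf43, a ubiquitin ligase that removes Wnt receptors, each with 2. The intronic origin of Tcf7l1, chr6:72633241-72633405, had a fold enrichment of 5.29 in PhenDC3 2 and 3.47 in Ctrl 3 and stood at the 93.1 percentile of PhenDC3 1. The Tcf7l2 origin, chr19:55917665-55917877, had values of 6.37, 7.33 and 8.42, and the Rnf43 origin, chr11:87694173-87694436, 6.87, 5.94 and 7.67. Gene length was not compared, and long genes can hold more origins. RNA of Tcf7l1 and Tcf7l2 rose, by 0.88 and 0.89 on the log2 scale (adjusted p = 0.00177 and 0.00209, edgeR). Of the 14 Wnt genes tested, 3 were higher and 3 lower, against 18.0 and 18.7% over all genes tested.

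In the other lists the counts were smaller. Of the replication initiation genes, 3 of 30 held a one-control origin, in introns of Mcm6, a subunit of the replicative helicase, and of Cdc45 and Gins1, which join it to form the active helicase. RNA of Mcm6 fell by 0.37 and that of Gins1 by 0.41 on the log2 scale (adjusted p = 0.0286 and 0.0128, edgeR). Of all 30 genes of this list, most of which held no one-control origin, 8 were lower and 1 higher. Over all genes tested, 18.7% were lower and 18.0% higher. Of the G4 helicases, Brip1 with 2 and Ddx11 with 1 held such origins, and the log2 fold changes of these genes were -0.39 and -0.25 (adjusted p = 0.0514 and 0.0665, edgeR). The strongest Brip1 origin, chr11:86151202-86151424, had a fold enrichment of 11.7 in PhenDC3 1, 7.42 in PhenDC3 2 and 3.29 in Ctrl 2. Otx2, Fgf5 and Pax6 among the formative and lineage genes, Bcl2 and Pdgfa among the oncogenes and Bbc3 among the p53 targets held 1 each, and Esrrb in the pluripotency list held 2. The origin inside Pax6 is the same region as its promoter origin given above. None of the 10 DNA methylation genes held one.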

How the data were processed

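SNS-seq peaks of 5 libraries and RNA-seq counts of 6 libraries were analysed. Per the submitters' processing notes, tools named without a role were Bowtie2 2.2.5 and 2.2.9, cutadapt 1.9.1, MACS2 2.1.0, SICER, TopHat2 2.1.1, HTSeq 0.6.1p1, DESeq2 1.14.1 and edgeR 3.16.5, with mm10 as the build. The deposited peak lists give a fold enrichment ratio, a −log10 p-value and a summit per peak, called by the authors with MACS2 for each library against 1 RNase-treated library of the condition. The deposited RNA-seq values are raw read counts per gene. The authors' table of normalized counts and their DESeq2 comparison (fold changes and p-values) were not used.

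Peaks were joined when overlapping by at least 1 bp, and each region was placed by its middle. G4 were predicted with G4Hunter (window of 25 bases, score of at least 2, within 500 bp) and annotated with RefSeq GRCm38. Shares have 95% Wilson and their differences 95% Newcombe intervals over sites, which cover counting error only. Genes were tested with edgeR 4.0.16 (R 4.3.3, quasi-likelihood, RLE normalization, filterByExpr, Benjamini-Hochberg adjustment over 13972 genes). CPM were computed from the counts of the genes tested, with library totals adjusted by the RLE normalization. Python 3.11.15, numpy 2.4.6 and pandas 2.3.3 were used, and the code was tested on simulated data. Replicate numbers came from the labels. RNA-seq samples of the same number deviated together with r = 0.09, 0.54 and 0.41 across genes, the highest value for each sample. The labels name no pairing, so the main fit took no pairs, and a replicate block was run as an alternative.

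The members, gene lists and tests were chosen with earlier results of these data known. Regions were named by a rule: for each control, the 3 G4-positive and the 1 G4-negative origins with the highest sum of percentiles in the PhenDC3 lists, and those at the threshold. Of these, 3 G4-positive origins and their sequences are not reported here. Genes were named as the 8 largest rises and 8 largest falls among promoter genes past an adjusted p of 0.05, with a mean of at least 1 CPM and no overlap between conditions, and as list genes with a member at the promoter or, for at most 3 per list, inside. Alternatives changed the joining of peaks, the strength and number of peaks, the G4 prediction, the promoter, the neighbour distance, the RNA-seq normalization, filter and test (DESeq2 1.42.0), the replicate block, and left out each replicate.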

Additional observations from a re-analysis of the deposited data

How the results depend on the processing

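Of 147 values computed under alternatives, 118 counted as unchanged, and the cause of the other shifts was not tested. A difference had to keep its direction and whether its interval excluded 0. A count had to stay within 1.5-fold, and a share or a median within its main interval. The median log2 fold change of promoter genes ranged from -0.02128 to 0.05503, so its sign changed within that interval. The number of one-control origins was 4595 with the stronger part of each list, 6019 with the same number of peaks from each list and between 12496 and 23320 without each replicate. Their G4-positive share was 83.1, 82.4 and between 68.7 and 81.9% in the same order, 95.4% at a G4Hunter score of 1.5, 47.5% within 250 bp and 75.3% with Quadparser. The difference from origins with no control peak was 1.37 percentage points with the same number of peaks and 1.275 standardized to GC content, both with intervals above 0, -0.187 at a score of 1.5, -4.38 within 250 bp and between -1.73 and 1.84 without each replicate, with -0.0004928 without Ctrl 3 and -0.336 without PhenDC3 1. Against origins of all lists, leaving out each replicate gave differences between -7.23 and 3.75 for G4, between -4.91 and 0.808 for promoters (0.683 without Ctrl 1) and between -7.06 and 3.72 for neighbours. In the RNA-seq, the replicate block gave 3797 genes higher and 3692 lower, and 92 promoter genes higher and 100 lower, and each sample correlated best with the one of its own number. Leaving out each replicate gave 1709 to 2689 genes higher and 1623 to 2727 lower, and 35 to 55 promoter genes higher and 58 to 83 lower, the lowest without PhenDC3 1. With promoters on both sides of the TSS, 776 promoter genes were tested instead of 354. Of these, 119 were higher (15.3%) and 167 lower (21.5%), against 15.5 and 22.3% in the main setting. Leaving out an SNS-seq list also changed which regions counted as one-control origins. Read depth is not known for the peak lists, so a missing control peak cannot be told apart from one below detection.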

Other observations

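Among genes, Asic2, an acid-sensing ion channel gene, held 10 one-control origins in 1088 kb, and Grid1, Slc39a11 and Tns1 held 9 each. These genes were picked by their counts, after the values were seen. Per 100 kb, Tns1, which encodes the focal adhesion protein tensin, held 4.20, Slc39a11, a zinc transporter gene, 2.22, Grid1, a glutamate receptor gene, 1.18 and Asic2 0.919. Cacna1a, a neuronal calcium channel gene, held 8, or 3.56 per 100 kb.

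One-control origins were densest on chromosome 11, with 759 or 6.39 per Mb, against 3.82 per Mb over the nuclear chromosomes. Origins of all 5 lists were also densest there, at 14.5 per Mb against 8.57. Chromosome X held 138 one-control origins, 0.844 per Mb, and 2.01 origins of all 5 lists per Mb. The share of one-control origins on chromosome X was 1.36%, against 1.45% of the origins of all 5 lists (difference -0.0822 percentage points, 95% Newcombe interval -0.347 to 0.204).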
